A study of Mus musculus with 6 samples.

Results

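Cholesterol synthesis and its feedback control were examined through 8 genes: Srebf2, Insig1, Hmgcs1, Mvk, Idi1, Fdft1, Sqle and Lss. They were taken by symbol as genes of the mevalonate and sterol pathway and of its feedback loop, and all 8 were found among the 54532 genes of the count table. The data are RNA sequencing counts of whole quadriceps from mouse pups 10 days old on chow. The control group (Pcyt2 flox/flox) has 3 libraries, and so has the Myf5Cre-Pcyt2 group (Myf5Cre-Pcyt2 flox/flox). Pcyt2 encodes the enzyme that makes CDP-ethanolamine for phosphatidylethanolamine, and both groups carry its floxed alleles. Cre is driven from Myf5, a gene of muscle precursors that is also active in precursors of some brown fat. No label gives the controls a Cre allele, so loss of Pcyt2 and presence of Cre cannot be told apart. Strain and litter are not given in the labels, so p-values measure only the spread between these 6 libraries.

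Cells make cholesterol from acetyl-CoA by way of mevalonate, isoprenoid units, squalene and lanosterol. SREBP2, the product of Srebf2, is a membrane-bound transcription factor that is held in the endoplasmic reticulum by INSIG proteins when sterol is plentiful. When membrane sterol falls it is carried to the Golgi, cut, and released to raise transcription of nearly the whole pathway, of sterol uptake and of Srebf2 and Insig1 themselves. In skeletal muscle the pathway also feeds ubiquinone, dolichol and protein prenylation.

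Library totals lay between 17775898 and 20446920 counts. Pcyt2 itself was counted 353, 277 and 277 times in the controls, against 280, 328 and 272 times with Cre. Scaled to CPM (defined below), it had 18.7, 16.1 and 16.0 in the controls, against 14.9, 14.3 and 12.6 with Cre. The groups did not overlap, as for 19.2% of all tested genes in this direction. The difference did not pass (log2 fold change −0.28, SE 0.11, edgeR adjusted p = 0.0944). Which exons are removed is not said, so these values for the whole gene do not check the deletion. Xist and Ddx3y counts marked replicate 3 of each group as male. All 8 listed muscle fibre markers were detected, at a summed level of 174206 to 243426 CPM in control and 107406 to 141461 CPM in Myf5Cre-Pcyt2 (CPM is counts scaled to library totals of equal size after TMM normalisation). Of 14715 genes that passed the filter on low counts, 18.6% differed between the groups at an adjusted p under 0.05 in edgeR's quasi-likelihood test, 9.02% higher and 9.59% lower in Myf5Cre-Pcyt2. In this whole tissue, fewer cells of a type and less RNA per cell cannot be told apart.

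Promoter letters are shown for 5 of the 8 genes because SREBP2 is known to act on the pathway through short elements close to the start of transcription. RefSeq promoter windows (GRCm38.p6, 250 bases before to 50 after the start, 300 in all) were found for 6 of the 8, not for Fdft1 and Sqle. Each sequence below is the stretch of 160 bases that ends before the earliest annotated exon. Capitals mark TCACCCCA and TCACNCCAC (the sterol regulatory element type), CACGTG (the E-box type) and CCAAT or its reverse complement ATTGG (the NF-Y type).
Srebf2, chr15:82147021-82147180, plus strand: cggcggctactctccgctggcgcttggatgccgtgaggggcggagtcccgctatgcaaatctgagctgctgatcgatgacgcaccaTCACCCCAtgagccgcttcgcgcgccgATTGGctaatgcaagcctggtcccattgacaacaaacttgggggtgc
Insig1, chr5:28071203-28071362, plus strand: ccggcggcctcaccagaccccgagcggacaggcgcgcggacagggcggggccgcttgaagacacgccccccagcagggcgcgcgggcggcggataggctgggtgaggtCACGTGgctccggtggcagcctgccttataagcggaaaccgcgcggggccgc
Hmgcs1, chr13:119690191-119690350, plus strand: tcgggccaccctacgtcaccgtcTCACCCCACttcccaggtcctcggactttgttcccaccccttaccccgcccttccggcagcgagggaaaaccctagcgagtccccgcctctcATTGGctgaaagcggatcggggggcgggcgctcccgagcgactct
Mvk, chr5:114444109-114444268, plus strand: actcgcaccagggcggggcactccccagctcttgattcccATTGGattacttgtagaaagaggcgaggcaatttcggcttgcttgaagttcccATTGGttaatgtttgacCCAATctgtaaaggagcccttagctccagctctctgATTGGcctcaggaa
Lss, chr10:76531428-76531587, plus strand: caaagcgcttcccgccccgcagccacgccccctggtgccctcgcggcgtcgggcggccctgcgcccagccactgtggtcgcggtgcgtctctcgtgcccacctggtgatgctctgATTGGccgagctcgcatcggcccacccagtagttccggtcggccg

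The planned sterol element letters TCACNCCAC, searched on both strands, were present in 1 of the 6 windows, that of Hmgcs1, and in 1.24% of all 32851 mouse windows. The match began 137 bases before the RefSeq start of Hmgcs1. The shorter TCACCCCA, which was added after the windows were seen and lies inside the Hmgcs1 match, was also present in Srebf2, 162 bases before its RefSeq start and 74 before its GENCODE start. It occurred in 1.56% of all windows. CACGTG was present in Insig1 alone of the 6, against 7.15% of all windows. CCAAT was present in 6 of 6 and GGGCGG (the Sp1 type) in 6 of 6, against 37.4% and 35.7% of all windows. In Idi1 these matches lay before the RefSeq start but after the GENCODE start. The CCAAT match of Insig1 lay outside the stretch shown above. Of 12 other cholesterol enzyme genes with a window, 11 held CCAAT, 11 held GGGCGG, 3 held CACGTG and 0 held either sterol element spelling. A match is a description of letters in these windows, and no binding was measured.

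The 8 genes did not move as a block. Srebf2, Sqle and Lss rose in Myf5Cre-Pcyt2 muscle by 1.43-, 1.67- and 1.43-fold, and Mvk fell to 67.2% of the control level. Insig1, Hmgcs1 and Fdft1 did not pass the test, and Idi1 was too low to be tested. That is 3 higher and 1 lower of 7 tested genes, where 9.02% and 9.59% of all tested genes were called in those directions, and the median log2 fold change of the 7 was −0.03, against −0.002 over all tested genes. The same 4 genes had groups that did not overlap, 3 higher and 1 lower, as did 19.9% and 19.2% of all tested genes (39% in all). The summed level of the 8 genes was 142 to 186 CPM in control and 173 to 185 CPM in Myf5Cre-Pcyt2, so the sums overlapped. Hmgcs1 and Srebf2 weighed most in the sum, with control means of 72.6 and 40.0 CPM. The sum therefore says little of Mvk, Sqle and Lss, with 11.9, 5.78 and 3.80 CPM. With library size alone as the scaling, which lifts the median of all genes to 0.21, 3 of the 7 were higher and 0 lower.

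**Figure D1:**
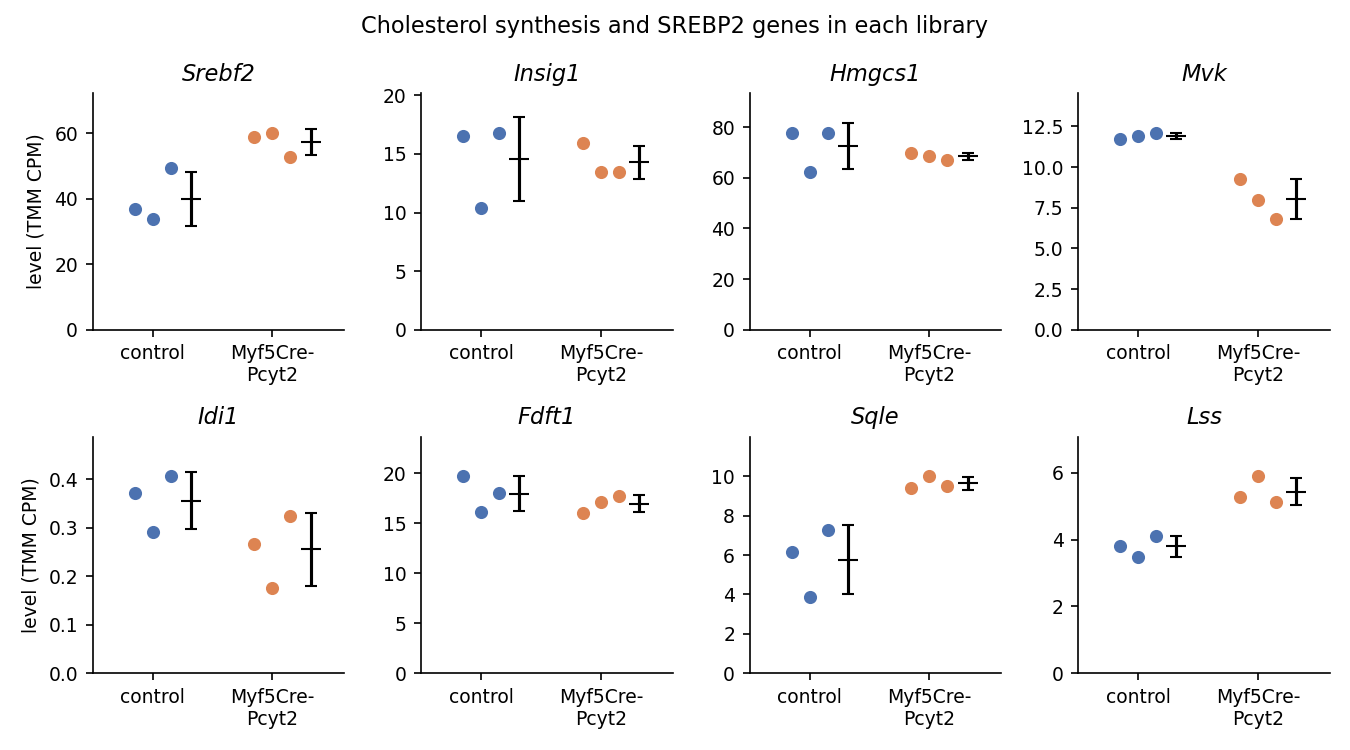
Level of each of the 8 genes (TMM CPM, linear axis from 0) in the 3 control (blue) and 3 Myf5Cre-Pcyt2 (orange) libraries, points in replicate order, with mean and SD in black. The groups separate for Srebf2, Sqle and Lss (higher) and for Mvk (lower), and overlap for Insig1, Hmgcs1, Idi1 and Fdft1.

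Srebf2 (ENSMUSG00000022463, GRCm38 chromosome 15, 82147181 to 82205379, protein coding) encodes the transcription factor of the pathway. Its level was 36.8, 33.9 and 49.4 CPM in control replicates 1 to 3, against 58.9, 60.2 and 52.9 CPM in the Myf5Cre-Pcyt2 libraries. All Myf5Cre-Pcyt2 libraries lay above all controls, with the highest control close to the lowest Myf5Cre-Pcyt2 library. The mean was 40.0 ± 8.21 CPM in the controls and rose to 57.3 ± 3.92 CPM (SD, n = 3 each), or 0.52 on the log2 scale (SE 0.13, edgeR adjusted p = 0.0222, 95% interval of the fold 1.17 to 1.75). The adjusted p was 0.0511 and 0.0784 when control replicates 1 and 2 were left out in turn, and 0.0557 and 0.0918 for Myf5Cre-Pcyt2 replicates 1 and 2, within a range of 3.34e-05 to 0.0918 over 15 alternatives, all of them with a positive change. Mir33, the microRNA gene in an intron of Srebf2, had 0 counts in every library. Its annotation spans 69 bases, and gene counts of this kind do not show whether the microRNA was present.

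Insig1 (ENSMUSG00000045294, chromosome 5, 28071363 to 28078662) encodes the retention protein that holds SREBP2 in the endoplasmic reticulum and is itself a sensitive SREBP2 target. Its level was 16.5, 10.4 and 16.8 CPM in the controls, against 15.9, 13.5 and 13.4 CPM in the Myf5Cre-Pcyt2 libraries. The Myf5Cre-Pcyt2 values lay inside the range of the controls, which was set by the low control replicate 2. The log2 fold change was −0.03 (SE 0.17, edgeR adjusted p = 0.913), and the 95% interval of the fold, 0.757 to 1.26, includes no change and leaves room for a difference of either sign. Over the 15 alternatives the sign was positive in 6 and negative in 9.

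Hmgcs1 (ENSMUSG00000093930, chromosome 13, 119690379 to 119708260) encodes the cytosolic synthase that makes HMG-CoA. It was the most abundant of the 8 per length. Its level was 77.8, 62.3 and 77.7 CPM in the controls, against 69.8, 68.6 and 67.0 CPM in the Myf5Cre-Pcyt2 libraries, so the Myf5Cre-Pcyt2 libraries again lay inside the control range. The log2 fold change was −0.08 (SE 0.10, edgeR adjusted p = 0.578, 95% interval of the fold 0.812 to 1.10), negative in 14 of 15 alternatives and positive with library size alone. An antisense gene model, Gm48342, shares 557 of its 4594 exon bases on the opposite strand, and reads there cannot be assigned without strand.

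Mvk (ENSMUSG00000041939, chromosome 5, 114444269 to 114460591) encodes mevalonate kinase, which phosphorylates mevalonate. Its level was 11.8, 11.9 and 12.1 CPM in the controls, against 9.29, 7.95 and 6.84 CPM in the Myf5Cre-Pcyt2 libraries. The controls were nearly equal and every Myf5Cre-Pcyt2 library was below them. The mean fell from 11.9 ± 0.179 to 8.02 ± 1.23 CPM (SD, n = 3 per group), or −0.57 on the log2 scale (SE 0.13, edgeR adjusted p = 0.0156, 95% interval of the fold 0.55 to 0.822). The adjusted p was 0.0643 and 0.0620 without Myf5Cre-Pcyt2 replicates 2 and 3, and 0.0903 with library size alone, within 0.00097 to 0.115 over 15 alternatives, and the change was negative in all 15.

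Idi1 (ENSMUSG00000058258, chromosome 13, 8885501 to 8892451) encodes the isomerase that interconverts the isoprenoid building blocks. It was counted 7, 5 and 7 times in the controls, against 5, 4 and 7 times in the Myf5Cre-Pcyt2 libraries, or 0.355 ± 0.0592 and 0.255 ± 0.0751 CPM, and did not pass the filter on low counts. The groups overlapped, and at 4 to 7 counts a difference of the size seen for the other genes was not detectable. With no filter its log2 fold change was −0.48 (SE 0.60, adjusted p = 0.645). Its longest coding transcript shares 684 bases at 100% identity with the processed pseudogene Gm13502, and the handling of reads with several placements is not given, so the count of Idi1 is uncertain. Gm13502 held 2 counts over all 6 libraries.

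Fdft1 (ENSMUSG00000021273, chromosome 14, 63145150 to 63179578) encodes squalene synthase, the step that commits carbon to sterols. Its level was 19.7, 16.1 and 18.1 CPM in the controls, against 16.0, 17.1 and 17.7 CPM in the Myf5Cre-Pcyt2 libraries, with overlapping groups. The log2 fold change was −0.08 (SE 0.10, edgeR adjusted p = 0.593, 95% interval of the fold 0.807 to 1.10), negative in 14 of 15 alternatives and positive with library size alone. Fdft1 shares 774 of its 4227 exon bases with Ctsb on the opposite strand, which held 38566 counts over all libraries, and it shares 1249 bases at 97.4% identity with the pseudogene Gm6781. Its count is uncertain for both reasons.

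Sqle (ENSMUSG00000022351, chromosome 15, 59315077 to 59331192) encodes squalene epoxidase, a rate-limiting enzyme of the sterol segment. Its level was 6.14, 3.89 and 7.30 CPM in the controls, against 9.40, 10.0 and 9.52 CPM in the Myf5Cre-Pcyt2 libraries. The Myf5Cre-Pcyt2 libraries were close together and above every control, while the controls differed among themselves by 1.88-fold. The mean was 5.78 ± 1.74 CPM in the controls and rose to 9.64 ± 0.319 CPM (SD, n = 3 each), or 0.74 on the log2 scale (SE 0.20, edgeR adjusted p = 0.0264, 95% interval of the fold 1.24 to 2.25). The adjusted p was 0.0553 without control replicate 2, the lowest control. It was 0.0516, 0.0967 and 0.0715 without Myf5Cre-Pcyt2 replicates 1, 2 and 3, within 9.12e-05 to 0.0967 over 15 alternatives, and the change was positive in all 15.

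Lss (ENSMUSG00000033105, chromosome 10, 76531588 to 76557138) encodes lanosterol synthase, which closes the sterol rings. Its level was 3.81, 3.48 and 4.11 CPM in the controls, against 5.29, 5.89 and 5.13 CPM in the Myf5Cre-Pcyt2 libraries, with no overlap between groups. The mean was 3.80 ± 0.316 CPM in the controls and rose to 5.44 ± 0.405 CPM (SD, n = 3 each), or 0.52 on the log2 scale (SE 0.16, edgeR adjusted p = 0.0461, 95% interval of the fold 1.12 to 1.83). The antisense gene model 4930483K19Rik, which held 3 counts over all libraries, shares 381 of the 10787 exon bases of Lss on the opposite strand. Reads there cannot be assigned without strand. The call of Lss was close to the threshold. The change was positive in all 15 alternatives (0.45 to 0.73), and the adjusted p was under 0.05 in 4 of them, within 0.0216 to 0.161. It was 0.0867 with DESeq2, 0.0501 with no filter, 0.0670 with sex as a covariate, 0.0810, 0.136 and 0.0631 without control replicates 1, 2 and 3, and 0.0743, 0.161 and 0.0946 without Myf5Cre-Pcyt2 replicates 1, 2 and 3.

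**Figure D2:**
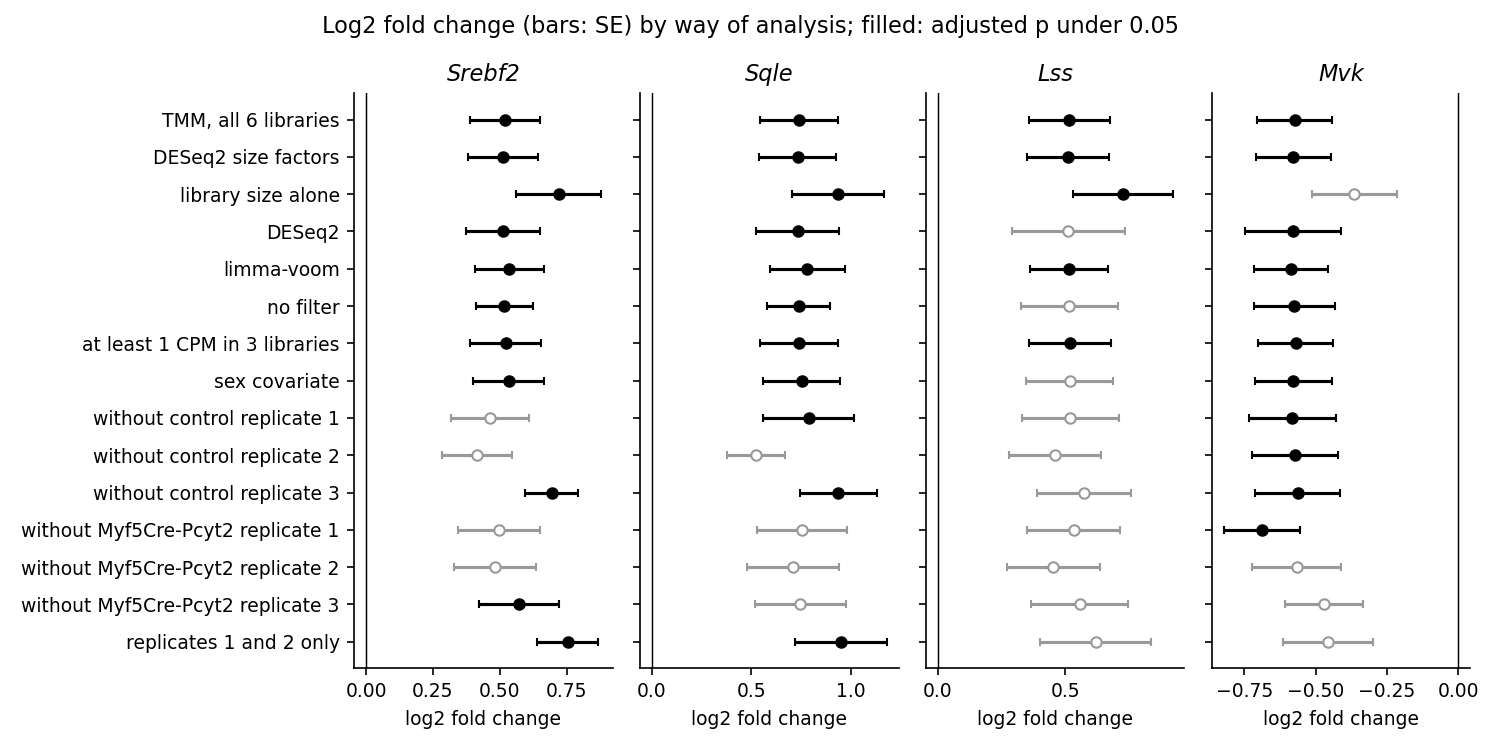
Log2 fold change with SE (horizontal axis) of the 4 called genes by way of analysis (rows), with filled points where the adjusted p was under 0.05. The fit with replicate number as a block is not drawn. Srebf2, Sqle and Lss stay above 0 and Mvk below 0 in every row, while Lss is filled in few rows and each gene loses its call without some libraries.

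Levels of different genes were compared per kilobase of merged exons. In control the order was Hmgcs1 with 15.8 ± 1.94 CPM per kb, Srebf2 with 5.57 ± 1.14, Insig1 with 4.71 ± 1.17, Mvk with 4.45 ± 0.0669, Fdft1 with 4.25 ± 0.422, Sqle with 1.04 ± 0.313, Lss with 0.352 ± 0.0293 and Idi1 with 0.101 ± 0.0169 (SD, n = 3). Srebf2, Insig1, Mvk and Fdft1 overlapped with their neighbours in this order, and the other steps did not overlap. In Myf5Cre-Pcyt2, Srebf2 reached 7.98 ± 0.545 CPM per kb and the mean of Mvk, above that of Fdft1 in control, lay below Fdft1 at 4.01 ± 0.202. The genes that rose, other than Srebf2, were thus among the low ones. Merged exons of Lss span 10787 bases over all annotated transcripts, which lowers its value per kb.

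The spread between libraries was itself uneven. The coefficient of variation was smaller in Myf5Cre-Pcyt2 than in control for 6 of the 8 genes, for example 3.31% against 30.0% for Sqle, 6.84% against 20.5% for Srebf2 and 9.87% against 24.9% for Insig1. The same count was not made over all tested genes, so it is not shown to be particular to these 8. Mvk went the other way, with 1.5% in control and 15.3% in Myf5Cre-Pcyt2. Control replicate 2 was the lowest control for 6 of the 7 tested genes (33.1% of all tested genes), and control replicate 3 was the highest for 5. Control replicate 2 also had the highest summed level of muscle fibre markers, 243426 CPM against 183353 and 174206 CPM in control replicates 1 and 3. The part of this difference in the levels of the 7 genes was not tested. Over the 7 genes and 15 other cholesterol synthesis enzymes together, control replicate 3 was the highest control for 15 of 22, whereas it was the highest for 33.6% of all tested genes. Control replicate 3 is the male control, and the male Myf5Cre-Pcyt2 library, replicate 3, was the lowest of its group for 11 of the 22 (29.5% of all tested genes). Using the female libraries alone (replicates 1 and 2, added after the data were seen), Srebf2 had a log2 fold change of 0.75 and Sqle of 0.95, and both passed, while Lss (adjusted p = 0.121) and Mvk (0.115) did not.

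**Figure D3:**
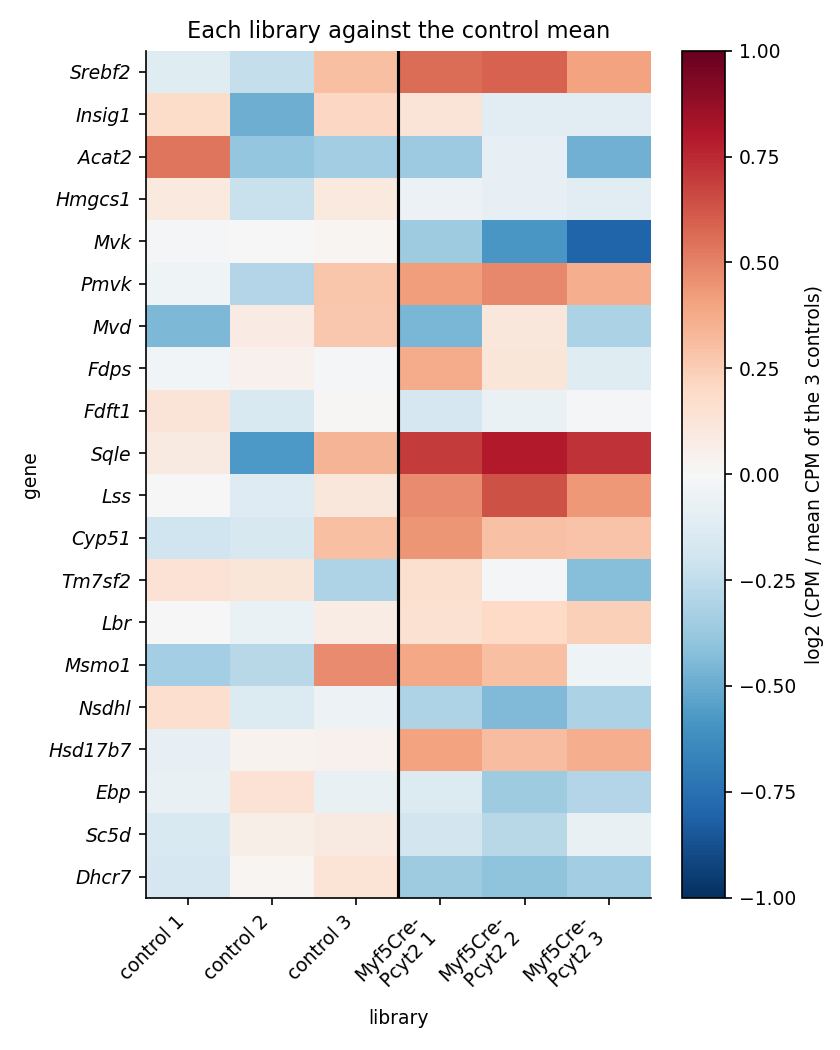
Log2 ratio of each library's CPM to the mean of the 3 controls (colour, from −1 to 1) for Srebf2, Insig1 and 18 of the 20 tested enzymes in pathway order (rows) in the 6 libraries (columns). Among the controls, replicate 3 is red and replicate 2 blue for many genes, Srebf2 and Sqle among them, and Mvk is blue in all 3 Myf5Cre-Pcyt2 libraries.

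The remaining enzymes of cholesterol synthesis were taken as a list of 15 genes, all tested. With edgeR 0 were called higher and 1 lower, where 9.02% and 9.59% of all genes were, and the list median was 0.13. At an unadjusted p under 0.05, 6 were higher and 3 lower. The shares over all genes are for the adjusted threshold and do not apply to this looser cut. No share over all genes was counted for it, here or for the lists below. DESeq2 called 1 higher and 0 lower, limma-voom 0 and 1, and library size alone 6 and 0. The gene that fell was Dhcr7, a late sterol reductase of the pathway. It had 14.2, 16.1 and 17.5 CPM in the controls, against 12.4, 12.1 and 12.5 CPM in the Myf5Cre-Pcyt2 libraries (log2 fold change −0.37, SE 0.11, edgeR adjusted p = 0.0366). Its groups were separated, with Myf5Cre-Pcyt2 libraries nearly equal. It kept its direction in all 15 alternatives and passed in 6 of them (0.0193 to 0.377). The adjusted p was 0.0913 and 0.100 without control replicates 2 and 3, 0.0641, 0.118 and 0.0938 without Myf5Cre-Pcyt2 replicates 1, 2 and 3, 0.0557 with DESeq2, 0.208 in the female libraries alone and 0.377 with library size alone.

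Lbr, a sterol reductase of the nuclear envelope, and Sc5d, a desaturase, had the highest CPM, not scaled to length, of the list among those that did not pass, with log2 fold changes of 0.20 (SE 0.08, adjusted p = 0.106) and −0.18 (SE 0.10, adjusted p = 0.235). Pmvk, the kinase after Mvk, and Cyp51, the lanosterol demethylase, were looked at after their values were seen. Pmvk had 10.0 ± 1.98 and 13.4 ± 0.544 CPM (log2 fold change 0.42, adjusted p = 0.0588), so its value lay on the opposite side of 0 from that of Mvk. Cyp51 had a log2 fold change of 0.34 with overlapping groups (adjusted p = 0.119). Without control replicate 3 both passed as higher (adjusted p = 0.0186 and 0.0241), and the 15 alternatives gave them adjusted p-values between 0.0165 and 0.292.

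In pathway order, which is a simplification because the late steps can run in more than 1 sequence, the 8 tested enzymes up to squalene synthase had log2 fold changes from −0.57 to 0.42 with a median of −0.08. Of these, 3 were positive and 5 negative, and Mvk was the call. The 12 enzymes after squalene ranged from −0.37 to 0.74 with a median of 0.21. Of these, 7 were positive and 5 negative, with Sqle and Lss called higher and Dhcr7 lower. Neighbouring steps thus differed in sign in both segments. The split was drawn after the values were seen and was not tested.

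**Figure D4:**
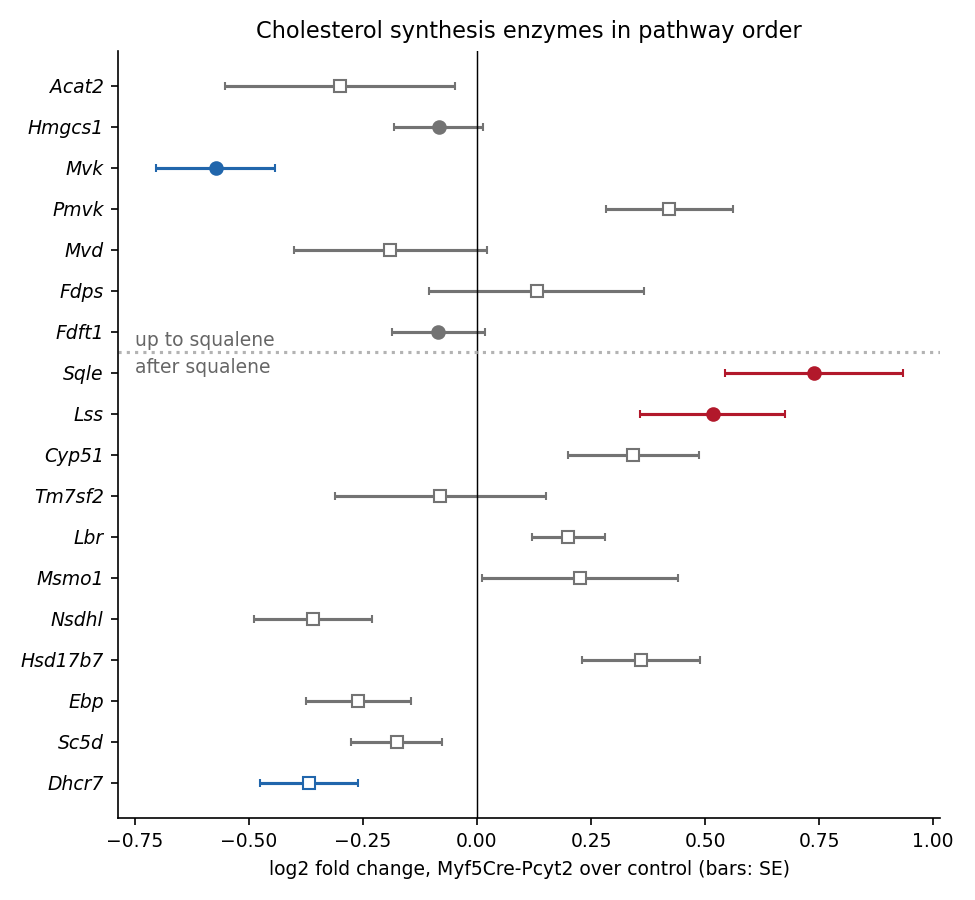
Log2 fold change with SE (horizontal axis) of 18 of the 20 tested cholesterol synthesis enzymes, from Acat2 at the top to Dhcr7 at the bottom, with filled circles for genes of the 8 and open squares for the other enzymes. Red marks genes called higher (Sqle, Lss) and blue genes called lower (Mvk, Dhcr7), and the grey genes fall on both sides of 0.

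Genes that sense sterol and process SREBP proteins formed a list of 11, all tested. With edgeR 0 passed, where 9.02% of all tested genes were called higher and 9.59% lower. At an unadjusted p under 0.05, 1 was higher and 0 lower. DESeq2 and limma-voom called 0, and library size alone 2 higher and 0 lower. Log2 fold changes ran from −0.22 to 0.35 with a median of 0.03. Vcp, the segregase that extracts proteins from the endoplasmic reticulum membrane, had a log2 fold change of 0.03 (SE 0.09). Scap, which escorts SREBP2 to the Golgi, had 43.0 ± 2.24 and 40.9 ± 2.96 CPM (95% interval of the fold 0.830 to 1.09). Insig2, the partner of Insig1 in retention, had a log2 fold change of −0.22 (95% interval of the fold 0.730 to 1.01). Srebf1, the paralog of Srebf2, had 31.5 ± 8.19 and 33.2 ± 0.947 CPM, with a log2 fold change of 0.07 (SE 0.15; edgeR adjusted p = 0.780), against 0.52 for Srebf2. The difference between these paralogs was not tested.

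Of 15 genes of sterol uptake and transport, 14 were tested, 1 rose and 0 fell (median 0.05). A count of 1 is near the 9.02% of all tested genes called higher. Lrp1, a large endocytic receptor of lipoprotein remnants, had 145, 118 and 92.3 CPM in the controls, against 174, 236 and 194 CPM in the Myf5Cre-Pcyt2 libraries (log2 fold change 0.77, SE 0.16, edgeR adjusted p = 0.0108). Every Myf5Cre-Pcyt2 library was above the controls. The adjusted p was 0.0533 without Myf5Cre-Pcyt2 replicate 2 and 0.0574 in the female libraries alone, within 6.29e-11 to 0.0574 over the alternatives. Osbp and Osbpl1a, sterol-binding transfer proteins, had log2 fold changes of −0.14 (SE 0.09) and −0.33 (SE 0.15) and did not pass.

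Of 11 genes of sterol efflux, storage and oxysterol sensing, 10 were tested, 0 rose and 2 fell (median −0.10), where 9.02% of all tested genes were called higher and 9.59% lower. At an unadjusted p under 0.05, 0 were higher and 3 lower, and DESeq2 and limma-voom each called 0 higher and 2 lower. Cyp27a1, the mitochondrial sterol 27-hydroxylase, had 10.3, 15.1 and 10.5 CPM in the controls, against 6.73, 5.50 and 7.48 CPM in the Myf5Cre-Pcyt2 libraries (log2 fold change −0.86, SE 0.18, edgeR adjusted p = 0.0103). Its call was lost with Myf5Cre-Pcyt2 replicate 2 left out (0.0531), and the alternatives spanned 2.41e-07 to 0.0531. Nr1h3, which encodes the oxysterol receptor LXR alpha, had 4.87, 3.60 and 4.63 CPM in the controls, against 2.67, 2.75 and 2.54 CPM in the Myf5Cre-Pcyt2 libraries (−0.72, SE 0.19, edgeR adjusted p = 0.0240). Both genes were lower in every Myf5Cre-Pcyt2 library than in any control. Nr1h3 had an adjusted p of 0.0613 without control replicate 1 or control replicate 3, 0.0765 and 0.0832 without Myf5Cre-Pcyt2 replicates 2 and 3, 0.163 in the female libraries alone and 0.108 with library size alone, within 0.00839 to 0.163. The LXR target Abca1, an efflux transporter, and Apoe, a lipoprotein component, had values of −0.06 (SE 0.19) and −0.14 (SE 0.20) with overlapping groups.

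The non-sterol branches that draw on the same isoprenoids were followed in 12 genes, all tested, of which 0 rose and 2 fell (median −0.12), beside 9.02% higher and 9.59% lower over all tested genes. At an unadjusted p under 0.05, 0 were higher and 4 lower. DESeq2 called 0 higher and 3 lower, limma-voom 0 and 2, and library size alone 0 and 0. Pdss2 and Coq2, which make and attach the side chain of ubiquinone, were the genes that fell. Pdss2 had 23.2, 33.5 and 30.5 CPM in the controls, against 20.1, 17.7 and 21.9 CPM in the Myf5Cre-Pcyt2 libraries (log2 fold change −0.54, SE 0.14, edgeR adjusted p = 0.0214). Coq2 had 34.2, 35.9 and 39.1 CPM in the controls, against 29.6, 24.9 and 27.2 CPM in the Myf5Cre-Pcyt2 libraries (−0.42, SE 0.09, edgeR adjusted p = 0.0148). The groups were separated for both. The adjusted p of Pdss2 was 0.0787 and 0.0532 without control replicates 2 and 3 0.0979 without Myf5Cre-Pcyt2 replicate 2, 0.0831 with library size alone and 0.0833 in the female libraries alone, within 3.40e-05 to 0.0979. That of Coq2 was 0.0745 and 0.0568 without Myf5Cre-Pcyt2 replicates 2 and 3 0.119 in the female libraries alone and 0.170 with library size alone, within 0.00223 to 0.170. Rabggtb, a subunit of the prenyltransferase of Rab proteins, and Nus1, of dolichol synthesis, did not pass (−0.29 and 0.02).

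Fatty acid genes that are mainly targets of SREBP1 gave 1 higher and 1 lower of 12 tested (median 0.03), near the 9.02% and 9.59% of all tested genes. Fads1, the delta-5 desaturase, had 24.5, 20.3 and 24.7 CPM in the controls, against 29.0, 34.5 and 27.8 CPM in the Myf5Cre-Pcyt2 libraries (log2 fold change 0.39, SE 0.11, edgeR adjusted p = 0.0346). Me1, the NADPH-making malic enzyme, had 62.5, 36.0 and 41.0 CPM in the controls, against 23.3, 13.8 and 34.2 CPM in the Myf5Cre-Pcyt2 libraries (−0.97, SE 0.28, edgeR adjusted p = 0.0372). The groups were separated for both. The summed level of 8 adipocyte markers was 997, 326 and 583 CPM in the 3 controls, highest like Me1 in control replicate 1. In Myf5Cre-Pcyt2 replicates 1 to 3 the sum was 451, 523 and 510 CPM, highest in replicate 2, where Me1 was lowest. The sums overlapped between the groups, unlike Me1. The part of the adipocyte level in the result was not tested. Fads1 had an adjusted p of 0.118 without control replicate 2, 0.0511, 0.149 and 0.0540 without Myf5Cre-Pcyt2 replicates 1, 2 and 3, 0.0538 with sex as a covariate and 0.0735 in the female libraries alone, within 0.00534 to 0.149. Me1 had 0.0937 and 0.0508 without control replicates 1 and 3, 0.0853 and 0.108 without Myf5Cre-Pcyt2 replicates 1 and 2, 0.0999 with DESeq2 and 0.0641 with library size alone, within 5.07e-16 to 0.108. Gpam and Scd2, with the highest CPM of the list among those that did not pass, had log2 fold changes of −0.20 and 0.34.

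Markers of some other cell types differed between the same libraries, where 9.02% of all tested genes were called higher and 9.59% lower. Of 10 markers of myelinating Schwann cells, which make much cholesterol for myelin, 5 were higher and 0 lower, and their summed level was 452 to 554 CPM in control and 673 to 910 CPM in Myf5Cre-Pcyt2. Of 8 markers of cycling cells, 4 were higher and 0 lower, with sums of 128 to 149 and 190 to 224 CPM. Of 5 satellite cell markers, 2 were higher, with sums of 78.0 to 90.5 and 101 to 104 CPM, and of 6 fibroblast markers 1 was higher, with sums of 8505 to 11036 and 11651 to 13267 CPM. Of the 8 muscle fibre markers 5 were lower. Endothelial markers gave 1 lower of 6 and red blood cell markers 1 higher of 6, counts near the shares over all genes, as was that of the fibroblast markers. Macrophage markers gave 0 called of 7 (edgeR, 2 higher at an unadjusted p under 0.05, 0 with DESeq2 or limma-voom), and adipocyte markers 0 of 8 (2 lower at an unadjusted p under 0.05, 0 with DESeq2 or limma-voom). All 8 adipocyte markers nonetheless had negative log2 fold changes (median −0.80), with control sums spread from 326 to 997 CPM. None of the listed markers had a level of 0 CPM. The part of these cell types in the levels of Srebf2, Sqle, Lss and Mvk was not tested.

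The genes most alike to the mean standardised profile of the 8, among 9936 genes with a mean of at least 5 CPM, were Dtd2, Mzt2, Snhg12, Adss and Nagk, with Pearson r from 0.95 to 0.98 over the 6 libraries. In all, 40 genes had r over 0.9. With 6 libraries and this many genes ranked, high r values can arise by chance, and no test was made. The mean profile was lowest in control replicate 2 (−0.97 SD units) and highest in control replicate 3 (0.53), with the Myf5Cre-Pcyt2 libraries between −0.03 and 0.15. Its largest contrast thus lay among the controls. Group differences of opposite sign, as for Sqle and Mvk, cancel in this mean, so it does not weigh them against the spread of single genes.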

How the data were processed

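Counts per Ensembl gene were used as deposited. For how the authors made the counts, the submitters' processing notes list Subread 1.6.2 (featureCounts), Bowtie2 2.3.4.1, Trim Galore 0.5.0 and the GRCm38 (mm10) build, in no order and with no roles. No source used here gives the annotation release or strand setting. Symbols, positions and merged exon lengths came from GENCODE M21. Of 54532 genes, filterByExpr kept 14715. The groups were compared with edgeR 4.0.16 (R 4.3.3): TMM scaling, quasi-likelihood test, two-sided, Benjamini-Hochberg adjustment over all tested genes, threshold 0.05. Standard errors are the log2 fold change divided by the root of F. The alternatives used DESeq2 1.42.0, limma 3.58.1, other scalings and filters, covariates and each library left out. Sequence sharing was searched with blastn 2.17.0 (at least 100 bases, 90% identity). No 2 libraries looked like copies.

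The 8 genes, the lists, the tests and the rule for named genes were chosen with earlier results of these data known. The rule named the 8 genes, each gene of a list past the threshold, the 2 with the highest mean CPM of each list among those that did not pass, and the 5 genes with a mean of at least 5 CPM most alike in profile (gene models and pseudogenes left out). Pmvk, Cyp51, Scap, Insig2 and Srebf1 fall outside it and were picked with their values in view. Some genes of the lists are counted but not reported here by name or drawn. The fit on replicates 1 and 2 alone was added after seeing the data.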

Additional observations from a re-analysis of the deposited data

How the results depend on the processing

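Direction held for Srebf2, Sqle, Lss and Mvk in all 15 alternatives. Of the 8 genes, the number called higher stayed at 2 or 3 under other scalings, tests, filters and covariates and was 0 to 2 with each library left out in turn. The number called lower was 1, and 0 to 1 with each library left out, 0 with library size alone and 0 with the female libraries alone. Over all genes, 2739 calls became 846 to 2785 with each library left out and 869 with the female libraries alone, so fewer libraries gave fewer calls across the table in most of these fits. The other cholesterol synthesis enzymes gave 1 call, which was lower. With each library left out in turn there were 0 to 4 calls, and the 4, without control replicate 3, were all higher. Library size alone gave 6, all higher. With no filter on low counts there were 3, of which 2 were higher and 1 lower, and the female libraries alone gave 0. Replicate numbers are shared between the groups, but same-numbered libraries did not deviate together (r = −0.111, −0.174 and 0.0182), so no pairing was used. With the replicate number as a block, 1731 genes were called in all, 0 of the other enzymes, 2 of the 8 genes higher and 1 lower, and Lss, Dhcr7, Nr1h3 and Fads1 did not pass (adjusted p = 0.100, 0.0751, 0.0538 and 0.0748). Depth limits Idi1, which had too few counts for a test.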
